A study of Homo sapiens with 6 samples.

Results

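The histone genes of the HIST clusters are the 73 genes whose symbols in the deposited tables start with HIST1H, HIST2H, HIST3H or HIST4H, out of 23698 gene rows. They were chosen by name, without use of their values. By class they comprise 6 linker (H1) rows, 18 H2A rows, 20 H2B rows, 14 H3 rows and 15 H4 rows, of which 56 lie on chromosome 6, 16 on chromosome 1 and 1 (HIST4H4) on chromosome 12. A few of them, such as HIST2H2BC, HIST2H2BA and HIST1H2APS1, are pseudogenes. Poly(A)-selected RNA was sequenced from MV4-11, an established acute myeloid leukaemia line with the FLT3 internal tandem duplication. The knockdown group held 3 libraries of cells stably carrying a lentiviral short hairpin against PRMT5, and the control group held 3 libraries of cells stably carrying a scrambled lentiviral vector. All cells were grown in the same medium, Iscove's with fetal bovine serum. How many hairpins, clones or separate cultures stood behind the libraries is not given in the sources used here, so a p-value here covers only how far these libraries differed, and that may be technical.

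Core histones H2A, H2B, H3 and H4 form the protein spool on which DNA is wound, and linker histone H1 binds where the DNA enters and leaves it. The genes of the HIST clusters are mostly expressed in S phase, when new DNA must be packaged. Their mRNAs usually end in a conserved stem-loop that is bound by SLBP, not in a poly(A) tail, and are degraded when replication stops. Some of these genes can also use a poly(A) signal beyond the stem-loop, and such polyadenylated histone mRNAs are known from cells that leave the cell cycle or differentiate. PRMT5 dimethylates arginines symmetrically in the tails of H2A, H3 and H4, among other substrates. A poly(A) library records the polyadenylated share of histone mRNA, so the values below are not the total histone mRNA of these cells.

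The stem-loops are shown because histone mRNAs cut there have no poly(A) tail, and only those that read past it can gain one. Each sequence is the stretch around the histone stem-loop in the transcript model of that gene that runs farthest past it (GENCODE release 29), with the 16-base stem-loop in capitals and 5 bases on each side in lower case.
HIST2H2BE: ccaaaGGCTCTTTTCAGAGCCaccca
HIST1H2AC: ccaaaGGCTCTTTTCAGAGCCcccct
HIST2H2AA3: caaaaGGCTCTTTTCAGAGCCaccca
HIST2H2BC: ccaaaGGCTCTTTTCAGGGCCattta
HIST1H2BD: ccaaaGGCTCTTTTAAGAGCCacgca
HIST2H4A: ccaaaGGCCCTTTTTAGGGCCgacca
HIST1H4J: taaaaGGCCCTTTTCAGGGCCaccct
These models went on for 1729 bases after the stem-loop in HIST2H2BE, 1128 in HIST1H2AC and 1167 in HIST2H4A, but for only 35 bases in HIST2H2AA3 and 6 in HIST1H4J. All 73 symbols were found in GENCODE, and 32 of them (43.8%) had a model with the stem-loop, against 2 of 19599 other protein-coding genes. The form in HIST2H2BE was the most frequent, in 17 genes. The form whose stem starts GGCCC, as in HIST2H4A or HIST1H4J, was found only in H4 genes among the models searched, with 3 and 5 genes for these forms. Models of 23 histone genes (31.5%) ended with a poly(A) signal (AATAAA or ATTAAA, read on the transcript strand) in their last 50 bases and after any stem-loop, against 82.1% of the other protein-coding genes. Of the 39 genes with neither feature, 32 were annotated as coding sequence alone, HIST1H1C and HIST1H2BK among them, so the search could find nothing there.

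Few histone genes were detected. At least 10 estimated counts in 3 or more libraries were held by 24 of 73 genes, and in any library by 35. Of all 23698 gene rows, 13730 held 10 or more rounded counts in at least 3 libraries. Only 17 genes reached 10 counts in all 6 libraries, and 12 were at 0 in each of them. By class, 1 of 6 linker, 6 of 18 H2A, 10 of 20 H2B, 3 of 14 H3 and 4 of 15 H4 genes were detected in 3 or more libraries. The genes at 0 included the testis-type genes HIST1H1T, HIST1H2AA and HIST1H2BA, and a count of 0 allows up to 3 counts, or 0.155 to 0.195 CPM depending on the library (CPM, the count scaled to library size with TMM factors). Among the 23 genes with a model that ends at a poly(A) signal 17 were detected, against 1 of 11 with a stem-loop and no such signal and 6 of 39 with neither. The 17 include genes with equal counts, HIST2H2AA3 with HIST2H2AA4, HIST2H3A with HIST2H3C and HIST2H4A with HIST2H4B. The rule for the signal was settled after seeing the data. The number of genes with 10 or more counts was 25, 18 and 20 in knockdown 1 to 3, 21 in control 1 and 17 in control 3, but 34 in the library labelled scrambled control 2 (from here, the library labelled control 2). There, 10 genes reached 10 counts that did so in no other library, among them HIST1H3H (65.8 counts, against 2 to 9), HIST2H2BA (80 against 2 to 9) and HIST1H2BI (11 against 0 in the other 5). How many of all gene rows did so only in that library is not given here, so this number has no background beside it.

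The libraries held 16408484 to 19077106 counts, and histone genes took a very small share of them. The share was 0.00891% in knockdown 1 (95% Wilson interval 0.00850 to 0.00934), 0.00714% in knockdown 2 (0.00675 to 0.00756) and 0.00574% in knockdown 3 (0.00540 to 0.00610). It was 0.00793% in control 1 (0.00752 to 0.00836), 0.00444% in control 3 (0.00415 to 0.00475) and 0.0403% in the library labelled control 2 (0.0393 to 0.0412). These intervals cover counting error only. That last library stood apart from the other 5 in its histone genes, and from controls 1 and 3 in the targeted gene. PRMT5 levels were 103, 71.6 and 52.99 CPM after knockdown, against 133 (control 1) and 158 CPM (control 3). The log2 difference of PRMT5 (knockdown minus control) over all 6 libraries was −0.60 (SE 0.43, edgeR adjusted p 0.926). It was −0.94 without the library labelled control 2. The library labelled control 2 had 53.2 CPM of PRMT5, within the range of the knockdown libraries and below controls 1 and 3. The reason was not tested. Differences of histone genes between the groups are therefore given with and without it. As for the cells, all 8 myeloid markers (summed 1377 to 2475 CPM) were measured. CD2, CD3E, HBB, HBA1 and EPCAM were at 0 in all 6 libraries, but not all members of their lists were. The 4 T cell markers summed to at most 0.240 CPM and the 4 erythroid markers to at most 1.09 CPM. The 4 epithelial markers summed to 11.4 to 24.6 CPM. Erythroid and epithelial sums were highest in the library labelled control 2. The library labelled control 2 also held the lowest level of the B cell gene PAX5 (5.94 CPM, against 11.2 to 15.6 CPM). Its summed myeloid markers were the lowest of the 6 libraries. By median log2 CPM against each gene's mean over the 6 libraries, however, the 8 myeloid markers were at −0.07 there. That median was lowest in knockdown 1, at −0.35. The fibroblast gene COL1A1 was highest in the library labelled control 2 (5.01 CPM, against at most 0.338 CPM). COL3A1 and COL1A2 were at 0 in all libraries. The part of other cells in the histone values of the library labelled control 2 was not tested.

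Linker histones were represented by a single gene. Levels are listed below in the order of library number, first for the knockdown and then for the libraries labelled control. HIST1H1C, which encodes a somatic linker variant, read 1.81, 1.21 and 1.5 CPM after knockdown, and 5.13, 92.9 (1433 counts) and 1.08 CPM under the control labels. The 92.9 CPM of the library labelled control 2 was 18.1-fold above control 1, the next highest, which itself lay above every knockdown library, whereas control 3 lay below them. HIST1H1B held at most 5 counts, HIST1H1E at most 4 and HIST1H1D 1, while HIST1H1A and the testis-type HIST1H1T held none. HIST1H1C took 83.9% to 100% of all linker counts in each library.

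Among H2A genes, those of chromosome 1 held most counts. HIST2H2AA3 and HIST2H2AA4, neighbouring near-identical genes, had the same count in every library, so their reads could not be told apart. Each read 6.38, 5.11 and 5.78 CPM after knockdown, and 7.89, 64.9 and 4.80 CPM under the control labels. The 5 libraries other than the library labelled control 2 lay within a 1.64-fold range. HIST1H2AC, a chromosome 6 gene with a long polyadenylated model, read 1.37, 1.57 and 1.40 CPM after knockdown, and 4.06, 31.4 and 0.730 CPM under the control labels. As with HIST1H1C, the order of its controls was the library labelled control 2, control 1 and then control 3, which was below the knockdown group. HIST2H2AC was at 2.19, 1.18 and 1.01 CPM against 1.40, 7.33 and 0.845 CPM. HIST3H2A lay between 0.216 and 1.37 CPM in 5 libraries and at 5.62 CPM in the library labelled control 2. HIST1H2AG alone among the detected H2A genes was not highest there (0.721 CPM, against 0.486 to 1.09 CPM in the others).

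H2B genes showed opposite patterns. HIST2H2BE read 1.41, 2.13 and 0.865 CPM after knockdown, and 1.19, 74.2 (1144 counts) and 0.570 CPM under the control labels. Its level in the library labelled control 2 was 34.9-fold above the next library, the widest such gap among the tested members. HIST2H2BF read 4.57, 6.28 and 3.95 CPM after knockdown, against 3.02, 20.5 and 2.69 CPM. The pseudogene HIST2H2BC was at 1.30, 3.45 and 2.32 CPM against 2.88, 13.3 and 2.49 CPM. HIST1H2BK, in contrast, was highest in knockdown 1. It read 26.8, 15.97 and 15.5 CPM after knockdown, and 12.99, 10.5 and 10.4 CPM under the control labels, so the groups did not overlap. HIST1H2BD was at 3.15, 2.79 and 1.84 CPM against 6.16, 7.10 and 1.14 CPM, where control 1 and the library labelled control 2 lay above and control 3 below the knockdown group. HIST1H2BC, HIST1H2BE, HIST1H2BN and HIST1H2BO, all on chromosome 6, were at 0.785 to 3.29 CPM and each highest in knockdown 1, with the library labelled control 2 inside the range of the other 5. HIST1H2BJ was at 1.24 to 2.30 CPM in 5 libraries and at 5.58 CPM in that library.

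Few H3 and H4 genes were detected. HIST1H3D was the only H3 gene that entered the tests, at 0.280 to 0.725 CPM in 5 libraries and 2.30 CPM in the library labelled control 2. HIST2H3A and HIST2H3C shared 1 value in each library, from 0.00305 CPM in control 3 to 1.28 CPM in the library labelled control 2. HIST2H4A and HIST2H4B, another pair with equal counts, each read 3.40, 4.86 and 1.36 CPM after knockdown, and 4.24, 6.63 and 1.54 CPM under the control labels. Here both libraries numbered 3 were lowest, and the library labelled control 2 was only 1.36-fold above the next. HIST1H4J and HIST1H4K, whose counts were nearly equal, were at 0.155 to 1.42 CPM in 5 libraries and at 5.93 and 6.11 CPM in the library labelled control 2.

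**Figure D1:**
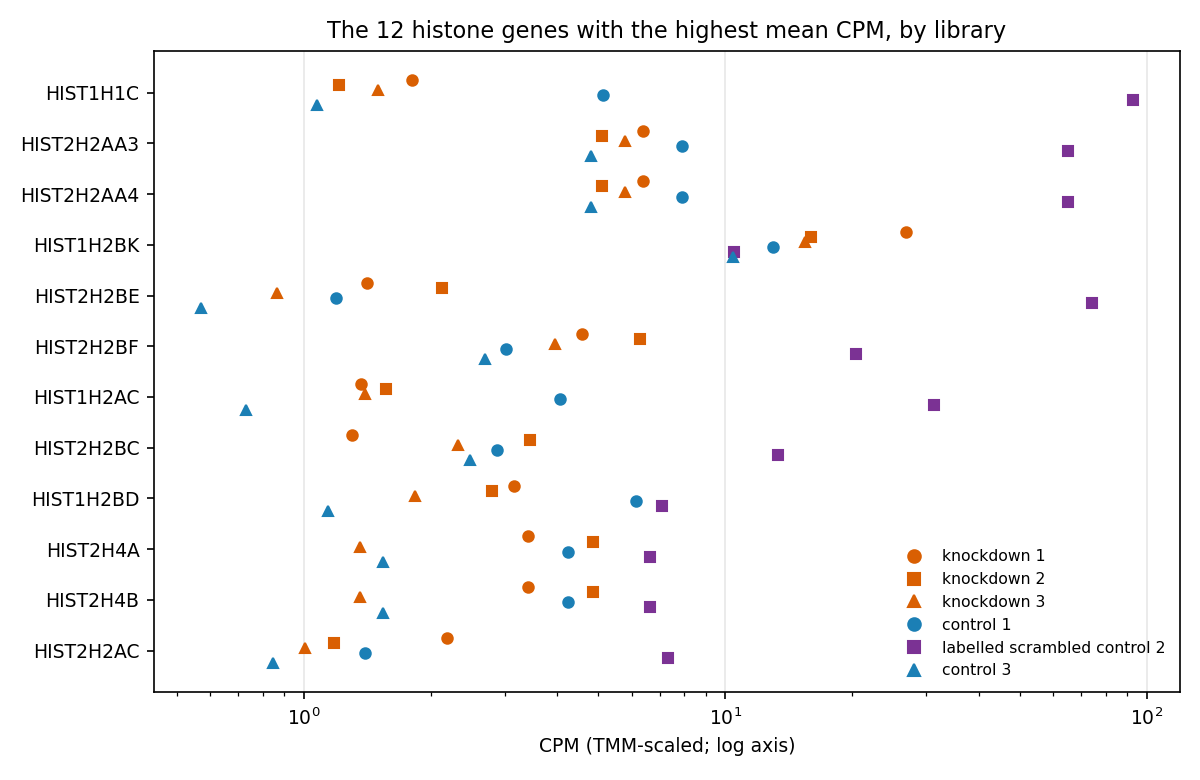
CPM (log axis) in each of the 6 libraries for the 12 histone genes with the highest mean CPM, 1 point per library with knockdown in orange, controls 1 and 3 in blue and the library labelled control 2 in purple. The purple point is farthest right in 11 of the 12 genes, up to 92.9 CPM for HIST1H1C, and among the lowest for HIST1H2BK.

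Across the 22 histone genes that entered the tests, 16 (72.7%) were highest in the library labelled control 2, as were 34.5% of all 13668 tested genes. In that library 13 of the 22 lay at least 2-fold above the highest of the other 5, which 7.31% of all tested genes did. None of the 22 lay at least 2-fold below the lowest of the other 5, against 7.65% of all tested genes. This comparison of 1 library with 5 has no replicate and no test. The 22 are also not all separate measurements. HIST2H2AA3 and HIST2H2AA4 held equal counts, as did HIST2H4A and HIST2H4B, and those of HIST1H4J and HIST1H4K were nearly equal. The 13 genes were HIST1H1C, 5 of the 6 tested H2A genes, 4 of the 10 H2B genes, HIST1H3D, HIST1H4J and HIST1H4K. The remaining 6 genes, HIST1H2AG, HIST1H2BC, HIST1H2BE, HIST1H2BK, HIST1H2BN and HIST1H2BO, were all highest in knockdown 1, unlike HIST2H4A, HIST2H4B and HIST1H2BD, which were highest in the library labelled control 2 by less than 2-fold. Of the 13 genes, HIST3H2A, HIST1H3D, HIST1H4J and HIST1H4K reached 10 counts in only 3 libraries, the library labelled control 2 among them. They thus entered the tests with the help of the library in which they were high, which raises the count of 13.

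Promoters are shown for the genes with the widest gaps and for the gene with the opposite pattern. Each sequence is the 250 bases before the annotated RefSeq start, read on the gene's own strand. Capitals mark 4 motifs, each searched on both strands. They are the letters CCAAT, known as a binding site of the factor NF-Y, and TATAAA, which places the start of transcription. The others are the octamer ATTTGCAT, which POU2F1 binds, and the linker gene element known as the H1 box, with letters AAACACA. In HIST1H2BK, matches to TATAAA on opposite strands overlap.
HIST1H1C promoter (GRCh38.p14, chr6:26056471-26056720, minus strand): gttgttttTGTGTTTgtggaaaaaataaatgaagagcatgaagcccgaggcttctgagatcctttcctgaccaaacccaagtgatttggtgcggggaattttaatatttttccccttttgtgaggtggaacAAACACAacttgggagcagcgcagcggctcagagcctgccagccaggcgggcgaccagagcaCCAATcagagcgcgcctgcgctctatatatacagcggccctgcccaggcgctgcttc
HIST2H2BE promoter (GRCh38.p14, chr1:149886683-149886932, minus strand): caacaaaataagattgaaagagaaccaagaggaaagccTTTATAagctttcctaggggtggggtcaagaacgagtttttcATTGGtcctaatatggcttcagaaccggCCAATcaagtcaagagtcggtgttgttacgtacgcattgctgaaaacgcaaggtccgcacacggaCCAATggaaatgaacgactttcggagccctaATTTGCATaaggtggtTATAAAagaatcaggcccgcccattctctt
HIST1H2BK promoter (GRCh38.p14, chr6:27146859-27147108, minus strand): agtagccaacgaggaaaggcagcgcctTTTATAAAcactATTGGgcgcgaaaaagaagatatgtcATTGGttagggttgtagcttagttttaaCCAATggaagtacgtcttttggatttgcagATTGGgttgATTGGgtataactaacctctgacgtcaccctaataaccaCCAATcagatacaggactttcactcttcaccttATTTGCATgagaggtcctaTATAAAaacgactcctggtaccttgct
Of 60 histone promoters matched in RefSeq, 50 (83.3%) held CCAAT, against 33.0% of all 27305 promoters, and 40 (66.7%) held TATAAA, against 11.1%. The octamer was in 9 of 13 H2B and 11 of 16 H2A promoters and in 1.66% of all promoters. It was also in 1 of 12 H3 promoters, that of HIST1H3D, whose window is the same as that of HIST1H2AD and is counted for both. The H1 box was in all 6 linker promoters and in none of the matched core promoters, against 4.95% of all. HIST2H2BE and HIST1H2BK both held the octamer, CCAAT and TATAAA. HIST2H2BE and HIST2H2AC are transcribed away from each other, and their windows share 235 of the 250 bases. In the library labelled control 2 the former was 34.9-fold and the latter 3.35-fold above the next library. HIST1H2AG and HIST1H2BJ share 247 bases, and HIST1H2BJ was 2.43-fold above the next library there. A motif match describes the letters only, and the part of the promoters in these levels was not tested.

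Linker and core classes were then compared within each library. Rows with equal counts, such as HIST2H2AA3 and HIST2H2AA4, were each added to the core sums. Summed linker counts were 2.46%, 1.74% and 2.80% of the summed core counts in knockdown 1 to 3, 7.75% in control 1 and 3.10% in control 3, and 25.6% in the library labelled control 2. As a share of all histone counts, the linker class took 2.41% in knockdown 1 (95% Wilson interval 1.78 to 3.26), 1.71% in knockdown 2 (1.11 to 2.62) and 2.72% in knockdown 3 (1.91 to 3.95). It took 7.19% in control 1 (5.93 to 8.69), 3.01% in control 3 (2.06 to 4.44) and 20.4% in the library labelled control 2 (19.5 to 21.3). The linker share exceeded the knockdown range in control 1 and in the library labelled control 2 beyond counting error, but not in control 3, whose interval overlapped those of knockdown 1, 2 and 3. All 3 control libraries lay above all 3 knockdown libraries in this ratio, by little in control 3. The mean log2 ratio of linker to core differed by −1.90 (knockdown minus control, 3 libraries each), and by −1.10 without the library labelled control 2.

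Of the core classes, H2B took the most counts in 5 libraries, 44.5% to 57.2% of the histone counts, and H2A took 22.3% to 32.2%. In the library labelled control 2 the order was H2A at 39.5% and H2B at 31.9%. That order rests on summing both HIST2H2AA3 and HIST2H2AA4, which had equal counts and each held 36.0% of the H2A counts there. With only HIST2H2AA3 summed, H2A lay below H2B in that library too. Whether their shared reads were credited in full to both rows is not given. H4 took 6.03% to 16.7% and H3 1.65% to 4.24% across the 6 libraries. HIST1H2BK alone took 38.1% to 52.9% of H2B counts in 5 libraries, but 7.2% in the library labelled control 2, where HIST2H2BE, HIST2H2BF, HIST2H2BC and HIST1H2BJ were higher. These are shares of counts that are not corrected for transcript length.

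**Figure D2:**
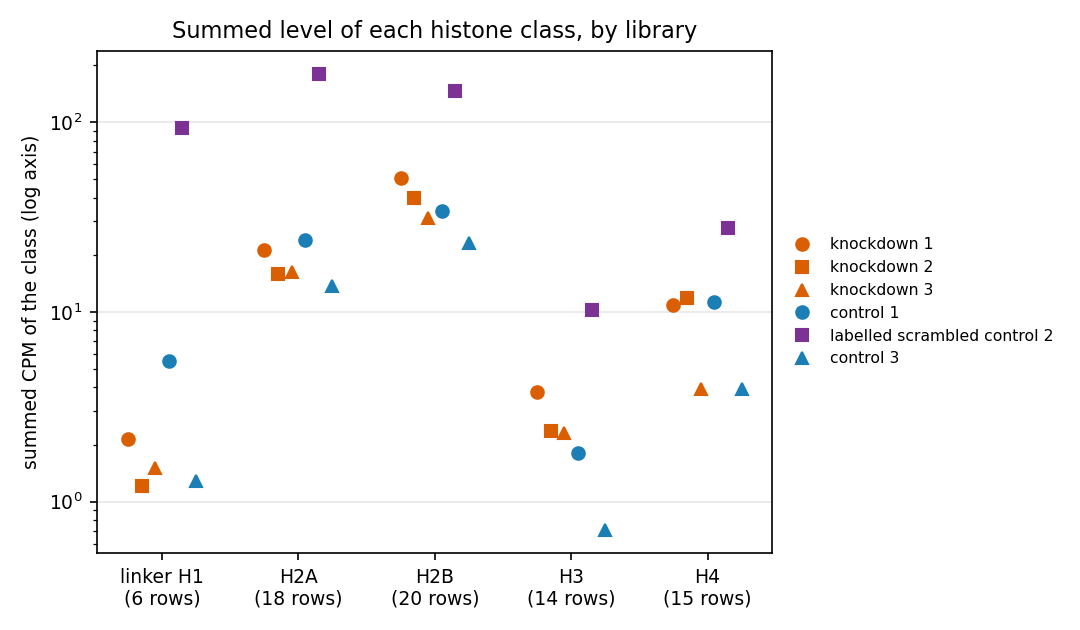
Summed CPM (log axis) of the rows of each histone class, 1 point per library, colours as for the single genes. The library labelled control 2 is highest in every class, at 93.2 CPM for linker H1 and 27.6 CPM for H4. For H3 the knockdown libraries (2.31 to 3.76 CPM) lie above controls 1 and 3 (0.706 and 1.80 CPM).

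**Figure D3:**
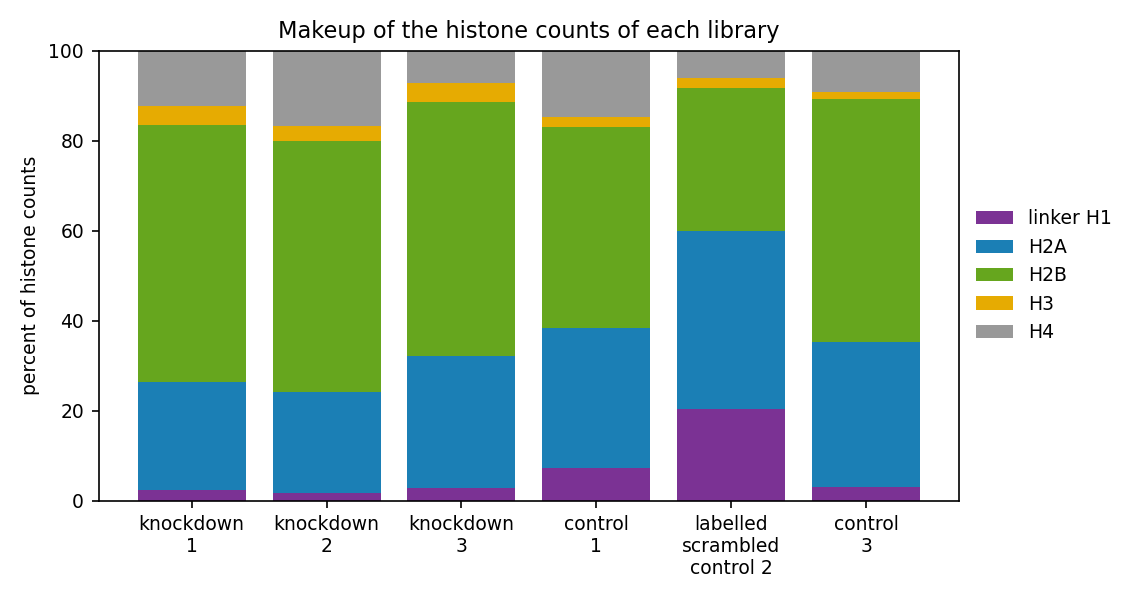
Stacked bars give the percent of histone counts taken by each class in each library, adding to 100 percent. Linker H1 takes 1.71% to 7.19% in 5 libraries and 20.4% in the library labelled control 2.

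By summed level, the linker class read 2.13, 1.21 and 1.5 CPM after knockdown, and 5.51, 93.2 and 1.28 CPM under the control labels. The core classes together were at 86.6, 70.0 and 53.6 CPM against 71.1, 364 and 41.4 CPM. Knockdown libraries had a mean linker level of 1.62 ± 0.471 CPM (SD, n = 3), and control libraries one of 33.3 ± 51.9 CPM (SD, n = 3). Their mean core levels were 70.1 ± 16.5 and 159 ± 178 CPM. On the log2 scale the linker difference was −2.47 and the core difference −0.57, and in both classes the groups overlapped. Without the library labelled control 2 the linker difference was −0.76 and the core difference 0.34. Libraries of the same number were also compared as pairs, though the labels state no pairing and the values pair number 1 only weakly (r = 0.127). The linker difference was −1.37, −6.26 and 0.22 in pairs 1 to 3 and the core difference 0.29, −2.38 and 0.37. By class the difference was −1.15 for H2A, −0.29 for H2B, 0.22 for H3 and −0.42 for H4. Without the library labelled control 2 these were −0.04, 0.51, 1.28 and 0.27, so H2B and H4 turned. Sums over the members carry no p-value here.

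No histone gene passed the test of knockdown against control. With edgeR's quasi-likelihood test 0 of 22 had an adjusted p under 0.05, and 0 of all 13668 genes did (0%). The smallest adjusted p among them was 0.926. DESeq2 and limma-voom called 0 as well, and at an unadjusted p under 0.05 the 3 tools gave 242 (edgeR), 461 (DESeq2) and 117 (limma-voom) of all genes. At that unadjusted threshold edgeR gave 6 histone genes, 5 lower and 1 higher in the knockdown group, against 1.77% of all tested genes. DESeq2 gave 5 histone genes and limma-voom 1, and with the replicate number as a block edgeR gave 1. The 22 genes include rows with equal counts, HIST2H2AA3 with HIST2H2AA4 and HIST2H4A with HIST2H4B. Of the 22 genes 16 were lower in the knockdown group (72.7%, against 50.1% of all tested genes), with a median log2 difference of −0.99 beside −0.00069 over all genes. That median was −0.59 with the replicate block and −0.44 by limma-voom. Without the library labelled control 2 the same 22 genes divided the other way, 16 higher (72.7%, against 50.3% of all) with a median of 0.31. Medians in pairs 1 to 3 were 0.44, −1.81 and 0.37.

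The 6 genes with an unadjusted p under 0.05 were HIST1H1C, HIST1H2AC, HIST2H2AA3, HIST2H2AA4, HIST2H2BE and HIST1H2BK. Among them HIST2H2AA3 and HIST2H2AA4 held the same counts and are not separate measurements. HIST1H1C had a log2 difference of −4.43 (SE 1.49, 95% confidence interval −7.90 to −0.96), the most negative of all genes tested, and an edgeR adjusted p of 0.926. Without the library labelled control 2 it was −1.02. HIST2H2BE had −4.11 (SE 1.70), but 0.74 without that library. HIST1H2AC had −3.05 (SE 1.17) and −0.72 without it. HIST2H2AA3 and HIST2H2AA4 each had −2.17 (SE 0.92) and −0.14 without it. Each of the 5 was thus reduced by more than 1.5 times or turned when that library was left out. By limma-voom on all 6 libraries HIST1H1C had −2.30, HIST1H2AC −1.56 and HIST2H2BE −1.32, and with the replicate block in edgeR −2.33, −1.78 and −1.57.

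HIST1H2BK was the 1 gene of the 22 whose groups did not overlap, and 3.12% of all tested genes likewise had all 3 knockdown libraries above all 3 controls. Its log2 difference was 0.78 (SE 0.30, 95% confidence interval 0.07 to 1.49), with an edgeR adjusted p of 0.926. It was 0.73 without the library labelled control 2, and 1.04, 0.60 and 0.57 in pairs 1 to 3. Without knockdown 1 it was 0.47. HIST1H2BO, HIST1H2BE and HIST1H2BC were also higher in the knockdown library of every pair. Their log2 differences were 0.71, 0.59 and 0.19 over the groups, and 0.76, 0.75 and 0.24 without the library labelled control 2. For HIST1H2BC the differences in pairs 1 to 3 were 0.41, 0.042 and 0.012, so in pairs 2 and 3 they were close to none. With HIST1H2BK, these 4 genes are 18.2% of the 22, and 14.6% of all tested genes were higher in all 3 pairs. HIST2H4A, HIST2H4B and HIST2H2BC were lower in all 3 pairs (13.6%, against 14.1% of all). No tested histone gene had all 3 knockdown libraries below all 3 controls, against 3.12% of all tested genes.

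**Figure D4:**
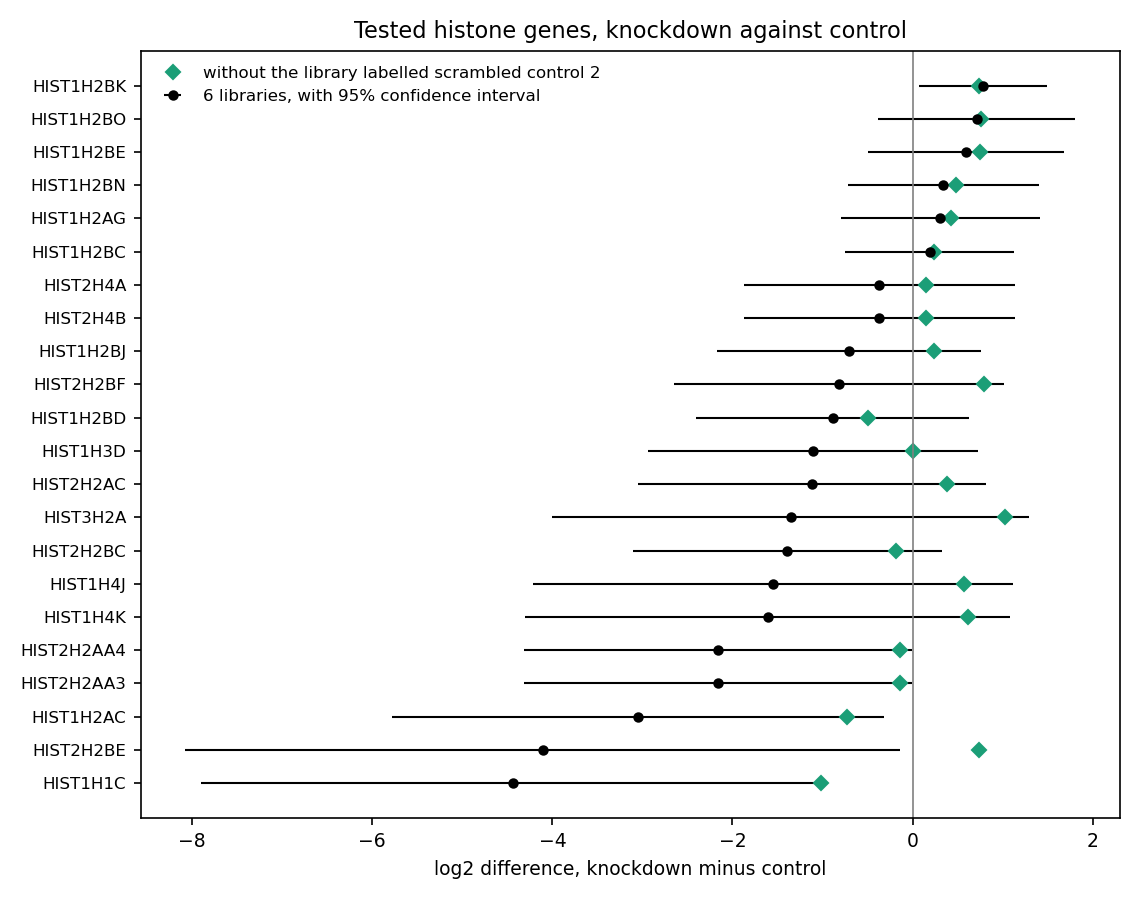
Log2 difference of knockdown minus control for the 22 tested histone genes, with black points and 95% confidence intervals from edgeR on 6 libraries and green diamonds for the fit without the library labelled control 2. HIST2H2BE moves from −4.11 to 0.74, while HIST1H2BK stays at 0.78 and 0.73.

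Genes around histone supply were read from the same fit, and none of them passed the test. Replication-independent histone genes, whose mRNAs mostly carry a poly(A) tail, were lower in the knockdown for 6 of 10 tested members. Their median log2 difference was −0.07, and −0.04 without the library labelled control 2, with 0 called. The linker genes of this list were read beside HIST1H1C. H1F0, the linker variant of resting and differentiated cells, read 18.9, 7.35 and 1.35 CPM after knockdown, and 48.8, 70.8 and 1.14 CPM under the control labels (log2 difference −2.13, SE 1.29, and −1.44 without the library labelled control 2). H1FX, another replication-independent linker gene, was at 44.7, 29.6 and 22.2 CPM against 72.8, 151 and 20.9 CPM (−1.34, SE 0.64, and −0.54 without it). Both shared with HIST1H1C the order of the controls, the library labelled control 2 first, control 1 next and control 3 lowest. The core variants H2AFZ and H3F3A had log2 differences of 0.28 and −0.14. In the library labelled control 2 H2AFZ was at 188 CPM, against 356 to 456 CPM in the others, opposite to the H2A gene HIST2H2AA3.

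Genes of histone mRNA processing and decay were higher in the knockdown for 20 of 27 members (median log2 difference 0.16, and −0.01 without the library labelled control 2), with 0 called. POU2F1, the octamer-binding activator, and ZCCHC6, a uridylyltransferase that acts in histone mRNA decay, had −0.50 and −0.41, and LSM10, a subunit of the U7 particle that cuts histone pre-mRNA, and NCBP1, a cap-binding subunit, had 0.34 and 0.50. Of the histone chaperones 18 of 24 were higher (median 0.11, and −0.03 without that library), with DAXX and ATRX, which together load H3.3, at −0.34 each, RBBP4 at 0.30 and HIRA at 0.32. The edgeR adjusted p was 0.926 for all 8 genes.

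S-phase genes were low in the library labelled control 2, where most tested histone genes were high. All 24 were tested and 18 were higher in the knockdown (median log2 difference 0.17, and −0.17 without that library), with 0 called. Their summed level was 2761, 3930 and 4370 CPM after knockdown, and 3428, 1527 and 4707 CPM under the control labels. Of these genes, 11 lay at least 2-fold below every other library in the library labelled control 2, as did 7.65% of all tested genes. PCNA, the replication clamp, was at 107 CPM there against 215 to 319 CPM elsewhere, and CCNE2 at 8.70 against 34.7 to 69.5 CPM. CDT1 and PRIM1, with PCNA and CCNE2 the 4 smallest p-values of the list, had log2 differences of −0.50 and −0.26, and PCNA and CCNE2 0.53 and 0.56. RNAs that lack a poly(A) tail, here small nucleolar and other structural RNAs, were read to see how far such RNA entered each library. They summed to 198 to 284 CPM in 5 libraries and 342 CPM in the library labelled control 2. Of 116 tested rows, 16 lay there at least 2-fold above the other 5, against 7.31% of all tested genes. At least 2-fold below the other 5 in that library lay 6 rows, against 7.65% of all tested genes. Their medians against the mean of the 6 libraries were 0.30 there and −0.28 to 0.26 elsewhere, beside 1.84 and −0.91 to 0.15 for the tested histone genes. The part of the cell cycle, or of RNA without a tail, in the histone values was not tested. In bulk RNA, a change in the share of cells in a state cannot be told apart from a change in RNA per cell.

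**Figure D5:**
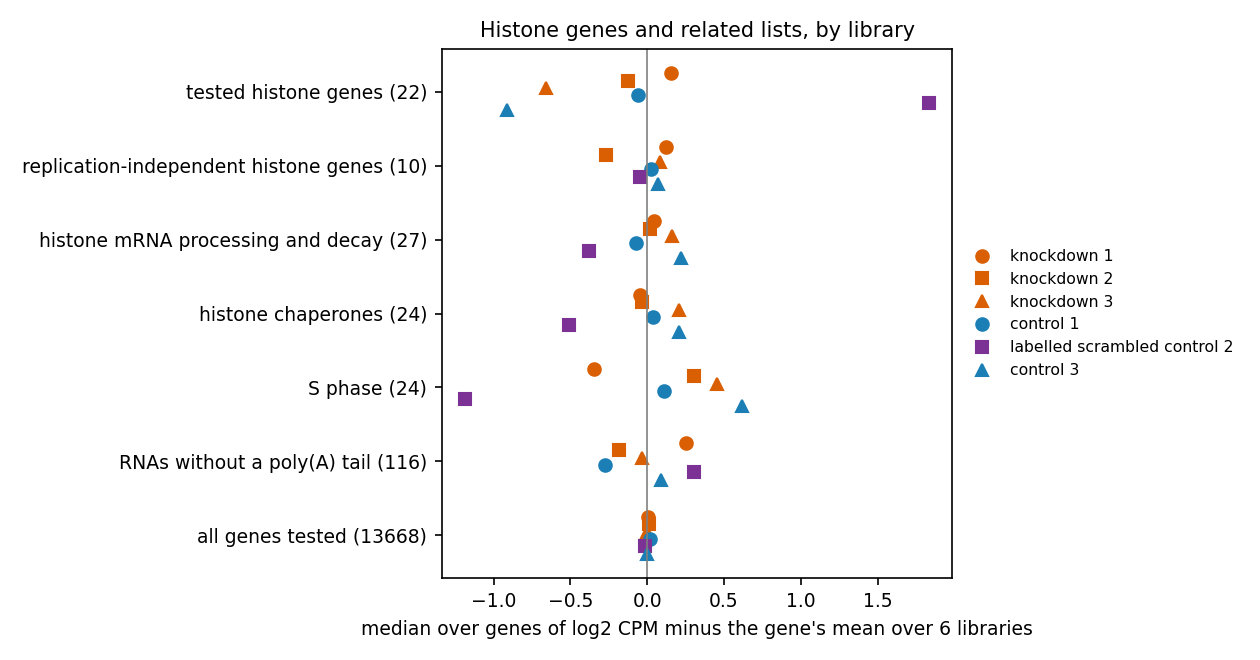
For each list, with its number of tested genes, the median over genes of log2 CPM minus the gene's mean over the 6 libraries, 1 point per library. In the library labelled control 2 the tested histone genes sit at 1.84 and the S-phase genes at −1.19, while all tested genes sit near 0.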

How the data were processed

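Estimated counts per gene, not scaled to depth, were deposited by the authors as 1 table per library. CASAVA 1.9, TopHat2 version 2, edgeR and hg19 are named, with no role or order, per the submitters' processing notes. Which tool counted the reads, on which gene models and whether by strand, is not given in the sources used here, so reads of paralogous, overlapping or antisense genes may be mixed. Of the histone entries 67.1% were whole (tolerance 1e-06), and all were whole after multiplication by 51, so parts of reads were credited.

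Counts were rounded and genes kept by filterByExpr (minimum count 10) were tested in R 4.3.3 by edgeR 4.0.16 (TMM, glmQLFit, glmQLFTest, group only, two-sided, Benjamini-Hochberg over 13668 genes, threshold 0.05), which gives every adjusted p unless another tool is named. Log2 CPM used a prior count of 2. Class sums used unrounded counts and included every row, also those with equal counts. Other settings tried were scaling by RLE, by upper quartile or by total count, 2 other filters, DESeq2 1.42.0, limma-voom (limma 3.58.1), the replicate number as a block, and each library left out. An exact permutation of 3 against 3 libraries cannot go under 0.1 and was not used. Members and lists were chosen with earlier results of these data known. Values were given singly for PRMT5, the 12 detected histone genes of highest mean CPM, all linker genes and up to 4 genes per list with the smallest p; the rest were given by range. RNAs without a poly(A) tail were given as a list only. The genes named for reaching the count minimum in 1 library were chosen after their values were seen. Some list genes, such as CCNE2, stand in more than 1 list.

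Same-numbered libraries had correlated deviations from their group means (r = 0.127, 0.394 and 0.566 over genes), each above 0.1, so they are called pairs. Knockdown 2 with control 1 had r = 0.164, above the first of these, and the other pairings of unlike numbers were below 0. The labels do not state a pairing. On simulated data for this comparison over 13668 genes, edgeR called 2% of seeded differences of 2-fold, 76% at 4-fold, 94% at 8-fold and 100% at 16-fold. Differences were seeded only in genes above a minimum mean CPM. Most tested histone genes lay below that minimum, so these rates do not cover them. The median SE was 0.76 for tested histone genes and 0.33 for all tested genes. The rule for a poly(A) signal in a transcript model was settled after seeing the data. GENCODE release 29 and RefSeq (GRCh38.p14) were matched by symbol and used for sequence only, since the counts rest on hg19.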

Additional observations from a re-analysis of the deposited data

How the results depend on the processing

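Under RLE, upper quartile and total-count scaling, no count filter, a filter of 10 counts in 3 libraries, DESeq2, limma-voom and the replicate block, all 22 tested histone genes kept their direction, and no gene of any kind was called. Total-count scaling moved the median of all genes by 0.04. With the replicate block the values were −2.33 for HIST1H1C, −1.57 for HIST2H2BE and 0.74 for HIST1H2BK, and it changed no call. Sizes under limma-voom were nearer 0 for some genes, such as −0.44 for HIST1H4J against −1.55. Without a count filter 42 histone genes were lower in the knockdown, of 61 then tested, against 16 of 22. The linker to core difference was −3.55 from medians over tested genes, against −1.90 from sums. Leaving out 1 library at a time gave 6 to 18 genes lower (6 without the library labelled control 2), and differences of −3.85 to −0.76 for linker, −1.23 to 0.34 for core and −2.62 to −1.10 for their ratio. The direction of some genes turned. Without knockdown 1, HIST1H2AG (range −0.057 to 0.54) and HIST1H2BC (−0.058 to 0.36) turned. Without the library labelled control 2, HIST1H2BJ (−1.04 to 0.24), HIST1H3D (−1.57 to 0.0092), HIST1H4J (−2.32 to 0.57), HIST1H4K (−2.35 to 0.61), HIST2H2AC (−1.57 to 0.38), HIST2H2BE (−4.68 to 0.74), HIST2H2BF (−1.25 to 0.79), HIST2H4A and HIST2H4B (each −0.79 to 0.14) and HIST3H2A (−1.94 to 1.02) turned. Without both libraries numbered 2, a choice added after seeing the data, 8 genes were lower, and HIST1H2BJ (0.27), HIST1H3D (0.023), HIST1H4J (0.76), HIST1H4K (0.80), HIST2H2AC (0.52), HIST2H2BE (0.37) and HIST2H2BF (0.58) turned. The cause was not tested. Most histone genes held under 10 counts, so differences in them were not detectable at this depth.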
